A study of Mus musculus with 9 samples.

Results

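The perilipin genes Plin1 to Plin5 encode the proteins that coat intracellular lipid droplets, and PPARγ binding around them was followed over the day in murine interscapular brown adipose tissue (iBAT). PPARγ, a nuclear receptor, pairs with the retinoid X receptor on DNA and drives genes of lipid uptake and storage. Mice of the inbred strain C57BL/6J (male, 10 weeks of age, fed chow and kept below thermoneutrality) were sampled at 8 time points every 3 h, where Zeitgeber Time (ZT) 0 is the onset of the light phase and ZT12 that of the dark phase. All groups were untreated wild type mice and differed only in ZT. At each time point iBAT was pooled, of 8 mice according to the labels, whereas the section on animals of the study gives another number of mice per time point. Chromatin of each pool was immunoprecipitated with 8 μg of a PPARγ antibody and gave 1 library per time point, so no time point was replicated and the spread between mice or pools could not be estimated. An input library of ZT12 was not used here. In bulk tissue, fewer adipocyte nuclei and less binding per nucleus cannot be told apart.

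Peaks were taken as perilipin peaks when their midpoint lay in a window around Plin1 (70 kb), Plin2 (60 kb), Plin3 (50 kb) or the neighbouring pair Plin4 and Plin5 (50 kb), by position alone. This gave 26 of the 66066 peaks of the table, of which 8 were around Plin1, 5 around Plin2, 7 around Plin3 and 6 around Plin4 and Plin5. For 12 of the 26 the nearest start site of a curated RefSeq transcript was that of a perilipin gene, and the others were nearest to Kif7, Pex11a, Wdr93, Ticam1, Arrdc5, Uhrf1, Lrg1 or Sema6b. Reads in peaks per library were fewest at ZT18 (29572225) and most at ZT6 (34264812). PPARγ binding was present at adipocyte genes, as all 4 adipocyte markers (Adipoq, Fabp4, Lipe, Plin1) and 4 of 5 brown adipocyte markers had a peak within 10 kb of their start site, with Prdm16 as the exception. Of the other markers, 0 of 3 hepatocyte genes, 0 of 3 immune genes, 1 of 4 skeletal muscle genes and both endothelial genes had one, the last 2 groups with at most 416 normalized reads per gene compared with at least 6780 for the adipocyte markers. The brown adipocyte markers with a peak had between 1251 (Dio2) and 12109 (Ucp1).

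Perilipins share a droplet-binding region and control how easily lipases reach the stored triglycerides. Plin1, the main perilipin of adipocytes, holds the lipase co-activator ABHD5 at rest and releases it upon adrenergic stimulation. Plin2 and Plin3 are found in most tissues, Plin4 coats small new droplets in adipocytes, and Plin5 is typical of oxidative tissues, where it links droplets to mitochondria.

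PPARγ dimers bind a direct repeat of AGGTCA with 1 free base between the copies (DR1), and elements like it were located in the peaks to show where in each gene such sites lie. All 5 genes are transcribed from the reverse strand, and each start site lies inside the strongest peak assigned to that gene within the windows. These 5 start-site peaks are chr7:79727033-79737224 for Plin1, chr4:86661261-86671269 for Plin2, chr17:56287772-56293547 for Plin3, chr17:56102882-56113753 for Plin4 and chr17:56114213-56117908 for Plin5 (mm10, GRCm38). The Plin4 peak covers most of Plin4 and also the 3′ end of Plin5, so that its reads cannot be assigned to a single gene, and the Plin1 peak reaches into the neighbouring Pex11a. With at most 2 mismatches among 12 fixed bases, each of the 5 peaks held at least 1 such element, 10 in all. For Plin2, Plin3, Plin4 and Plin5, the element with 2 mismatches nearest to the start site is given 5′ to 3′ on the strand of the element, with the 13 bases that match the repeat in capitals.

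Plin2 (chr4:86670264-86670292, forward strand, intergenic, 219 bases upstream, 2 mismatches): tctgacttAGGTCAGGGGTCCtgaaagct
Plin3 (chr17:56289152-56289180, forward strand, intron 1, 1345 bases downstream, 2 mismatches): atggactaAGGACAGAGTTCAgacagagg
Plin4 (chr17:56111257-56111285, forward strand, intergenic, 1489 bases upstream, 2 mismatches): caagaatgTGGTGAGAGGTCAggaggacc
Plin5 (chr17:56117230-56117258, forward strand, exon 1 or intron 1 depending on the transcript, 54 bases downstream, 2 mismatches): gcacgtggAGCTCCGAGGTCAccctcagc

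No element matched the repeat in full, and 2 elements outside the start-site peaks are shown because they had a single mismatch. One lies in the coding part of exon 8 of Plin2 and the other in exon 17 of the neighbouring gene Sema6b, in its untranslated part.

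Plin2 exon 8 (chr4:86657029-86657057, reverse strand): gcagtctgAGGTCAAAGCTCAgtaaaccc
Sema6b exon 17 (chr17:56123783-56123811, forward strand): ctatgcgcAGGTAAAAGGTCAgcctcctc

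In total 15 of the 26 peaks (57.7%) held 28 elements with at most 2 mismatches, compared with 23.6% of the 66059 peaks on chromosomes, but the perilipin peaks are long. Among peaks of the same length within 10%, 90.0% of 50 peaks held one for Plin1, 87.0% of 54 for Plin2, 64.9% of 313 for Plin3, 85.7% of 42 for Plin4 and 56.8% of 1154 for Plin5. The presence of such an element therefore does not set the 5 start-site peaks apart from other peaks of their length. With at most 1 mismatch, 3 of the 26 peaks (11.5%) held one compared with 4.99% of all peaks. This comparison was not matched for length, so an excess over peaks of their length cannot be read from it. The share among peaks of the same length within 10% ran from 3.11% for chr17:56127800-56128397 to 26.2% for the Plin4 start-site peak.

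The promoters of Plin2 and Plin3 are shown because both genes are widely expressed perilipins but their time courses, given after the map of the windows, differed. They run from 250 bases before to 50 after the RefSeq start site (GRCm38.p6), on the reverse strand. Capitals mark the DR1-like element, here read on its other strand, and the E-box CACGTG, the motif bound by clock activators.

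Plin2 promoter (chr4:86670010-86670309): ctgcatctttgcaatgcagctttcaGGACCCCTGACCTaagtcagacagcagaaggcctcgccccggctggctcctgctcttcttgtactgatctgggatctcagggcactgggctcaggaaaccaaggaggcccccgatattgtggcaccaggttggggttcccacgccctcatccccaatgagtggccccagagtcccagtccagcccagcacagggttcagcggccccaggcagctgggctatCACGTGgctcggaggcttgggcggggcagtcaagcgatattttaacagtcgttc
Plin3 promoter (chr17:56290462-56290761): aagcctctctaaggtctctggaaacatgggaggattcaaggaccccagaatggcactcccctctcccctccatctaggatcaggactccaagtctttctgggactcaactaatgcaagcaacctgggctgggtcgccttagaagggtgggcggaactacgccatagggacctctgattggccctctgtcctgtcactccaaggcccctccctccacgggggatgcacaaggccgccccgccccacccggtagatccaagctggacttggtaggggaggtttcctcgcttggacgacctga

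Of the 5 genes, only Plin2 had a DR1-like element in this promoter window, as had 3.81% of all 27025 promoters, and only Plin2 had the E-box, as had 7.24% of them. The Plin3 promoter held neither. Over the whole start-site peaks, on either strand, the E-box was in those of Plin1, Plin2, Plin3 and Plin5 but not Plin4, where 78.6% of peaks of like length held it. The C/EBP motif TTGCNNAA was in all start-site peaks but that of Plin3, where 90.1% of peaks of like length held it, the EBF motif (TCCC and GGGA, 2 bases apart) was in no start-site peak but that of Plin4 (31.0%), and the NFI motif (TTGGC and GCCAA, 5 bases apart) was in 0 of the 26 peaks. These letters are a description of the sequence and do not show that a factor binds there.

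**Figure D1:**
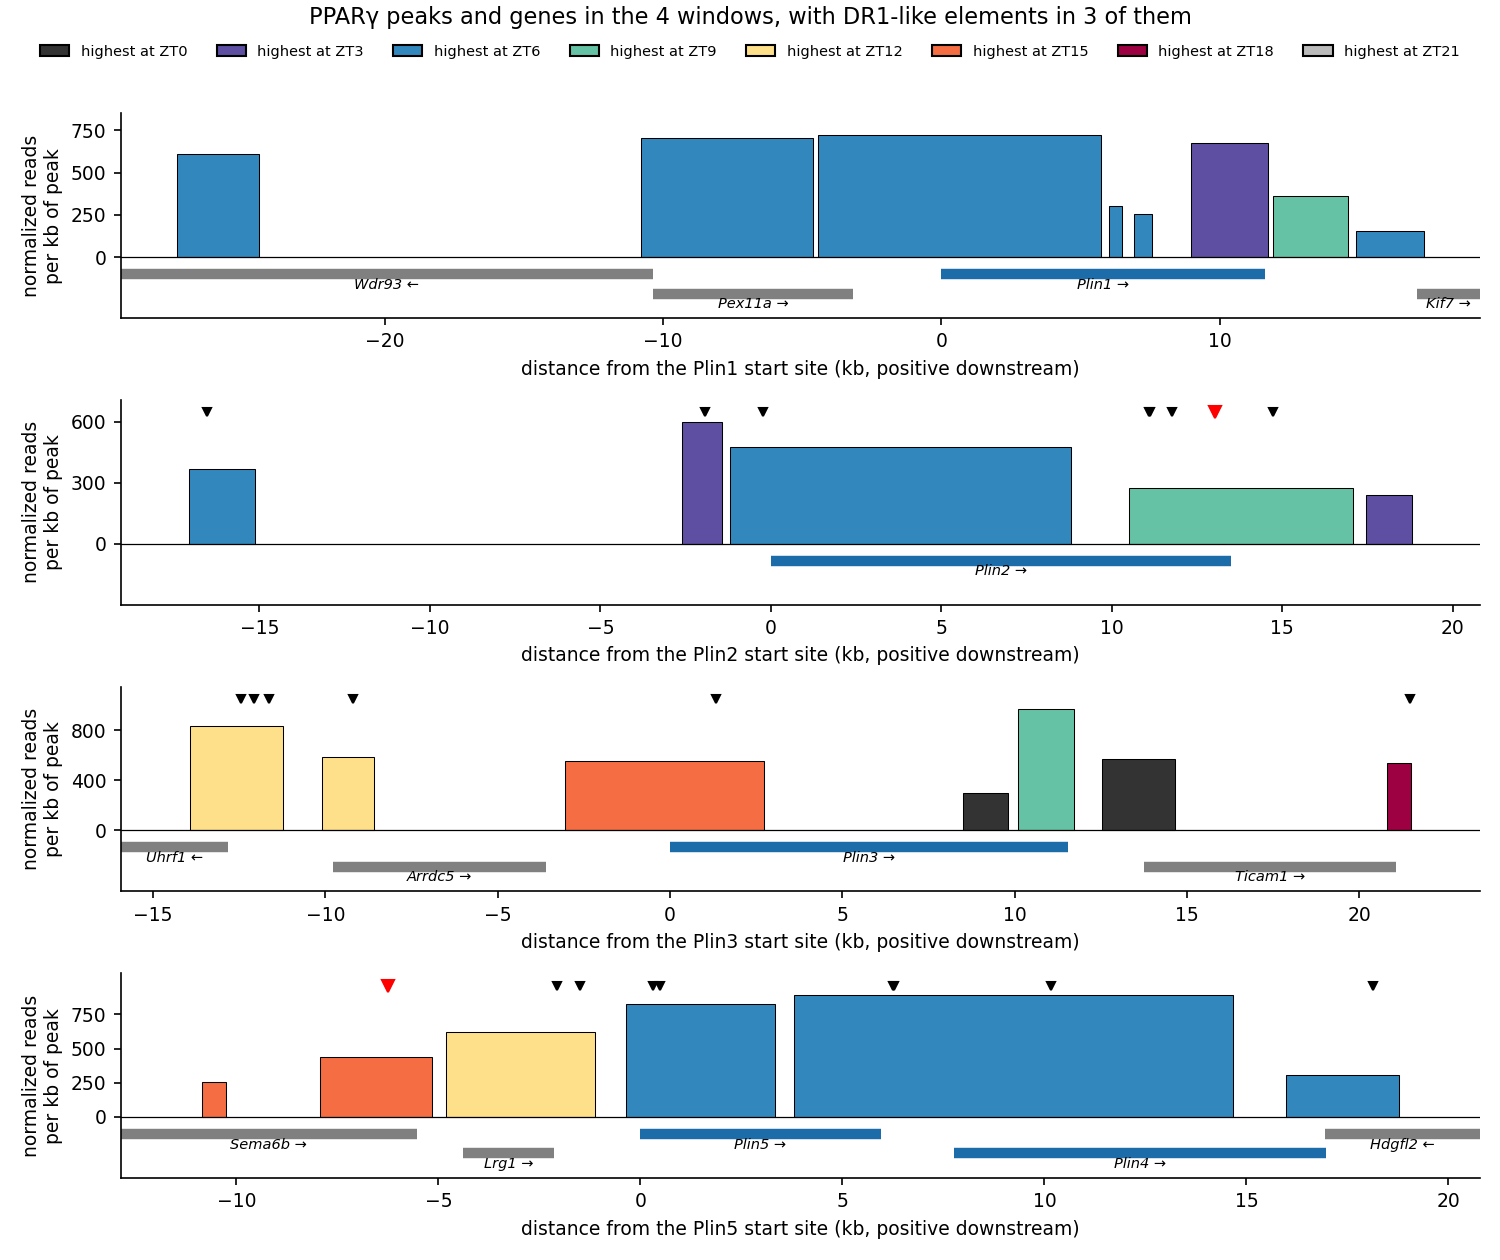
Each panel shows 1 window along the distance from a perilipin start site (kb, positive downstream), with peaks as bars whose height is the mean normalized read count per kb of peak and whose colour is the time of the highest level. Genes are drawn below with an arrow for their direction, and triangles mark DR1-like elements in the windows of Plin2, Plin3 and Plin4 with Plin5, red where they have 1 mismatch. Elements are not drawn for Plin1. All 8 peaks around Plin1 and all 5 around Plin2 were highest at ZT3, ZT6 or ZT9, whereas the peaks upstream of Plin5 and most of those around Plin3 were highest at other times.

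By total reads, binding at the start sites was strong for all 5 genes, since each of these peaks had a higher mean level than at least 98.4% of all peaks. These peaks are long, and total reads grow with length. By reads per kb, the share of all peaks below was 97.2% for Plin4, 96.3% for Plin5, 93.6% for Plin1, 85.9% for Plin3 and 79.3% for Plin2. Per kb of peak, the mean normalized read count was 890 for Plin4, 828 for Plin5, 720 for Plin1, 555 for Plin3 and 474 for Plin2. The median was 268 per kb over all peaks and 664 per kb over the strongest 10%, above the values of Plin3 and Plin2.

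PPARγ binding at Plin1, Plin2, Plin4 and Plin5 was highest in the middle of the light phase and lowest in the dark phase, while binding at Plin3 was lowest at ZT6 and highest at ZT15. These are levels after normalization with edgeR's TMM factors. Under cyclic loess, another normalization described after the tests, the highest level moved to ZT15 at Plin1 and Plin2 and to ZT3 at Plin4, but remained at ZT6 at Plin5 and at ZT15 at Plin3. At the Plin4 start site they were, in the order ZT0, ZT3, ZT6, ZT9, ZT12, ZT15, ZT18, ZT21, 9460, 11041, 11601, 10941, 9972, 7928, 7685 and 8747. The Wilson interval at 95%, which covers counting error only, was 11396 to 11811 at the highest and 7512 to 7861 at the lowest time point. The 4 libraries from ZT3 to ZT12 all lay above those from ZT15 to ZT0. A 24-h cosine fitted to the log2 levels had an amplitude of 0.29 ± 0.03 (SE over 8 libraries), a 1.50-fold difference between the top and bottom of the curve, and peaked at ZT 5.89 ± 0.36.

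At the Plin1 start site the normalized read counts were 6889, 8044, 8816, 7702, 7598, 6833, 5963 and 6880 from ZT0 to ZT21. The level was highest at ZT6 (8637 to 8999) and lowest at ZT18 (5811 to 6119), a 1.48-fold difference, and the ZT3 to ZT12 libraries again lay above the others. The cosine had a log2 amplitude of 0.21 ± 0.04 and peaked at ZT 6.40 ± 0.71.

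At the Plin5 start site the normalized read counts were 2907, 3277, 3700, 3215, 3285, 2687, 2436 and 2988 in the same order. The highest level, at ZT6, was 1.52 times the lowest, at ZT18, and the cosine had a log2 amplitude of 0.22 ± 0.05 with a peak at ZT 6.21 ± 0.91. The Plin2 start site followed the same course with a smaller range, with 4387, 5159, 5293, 4942, 5028, 4422, 4207 and 4545 normalized reads. Its highest level was 1.26 times its lowest, with a log2 amplitude of 0.15 ± 0.03 and a peak at ZT 6.82 ± 0.84.

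Plin3, which moves between the cytosol and newly formed droplets, followed another course. Its start-site peak had 2962, 2937, 2854, 3282, 3609, 3762, 3242 and 2980 normalized reads from ZT0 to ZT21. The level was lowest at ZT6 (2753 to 2959), when the other 4 start sites were highest, and highest at ZT15 (3646 to 3882). The highest was 1.32 times the lowest, and the cosine had a log2 amplitude of 0.18 ± 0.03 with a peak at ZT 13.9 ± 0.70. Across the 8 libraries, which all peaks share, Pearson's r of the log2 levels was between 0.916 and 0.969 for the pairs among Plin1, Plin2, Plin4 and Plin5 and between −0.469 and −0.255 for their pairs with Plin3.

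**Figure D2:**
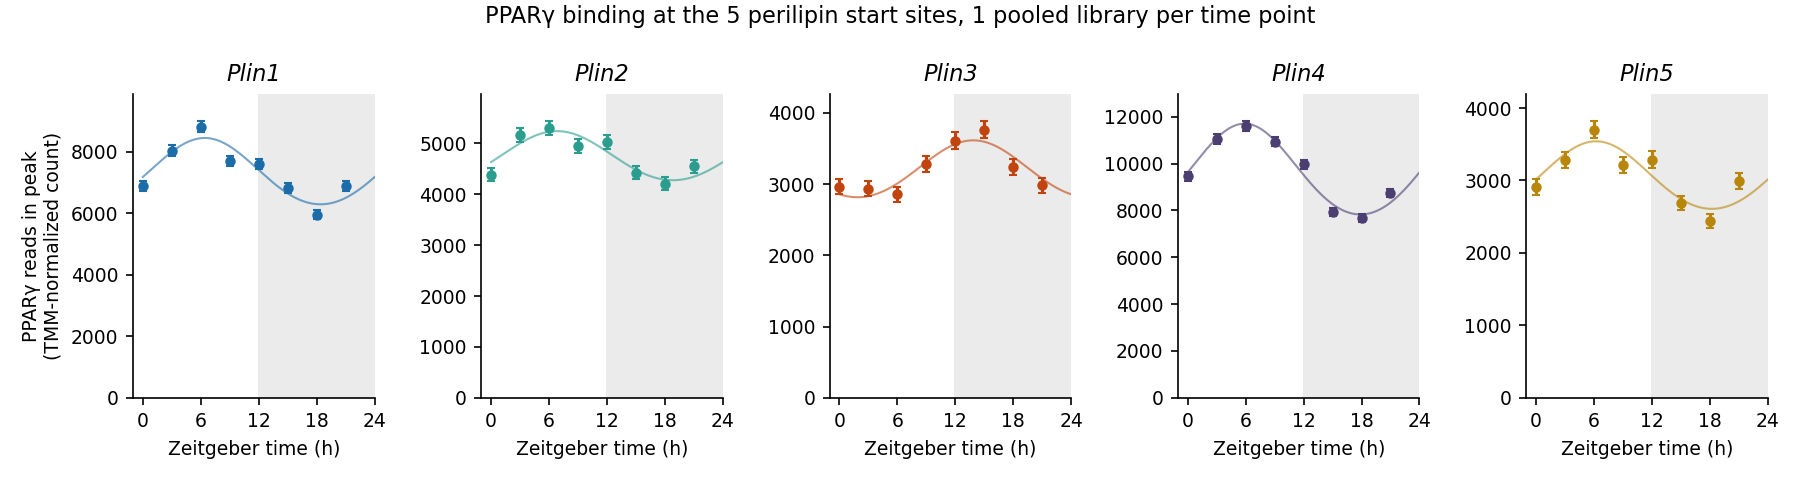
TMM-normalized read counts of the peaks over the 5 perilipin start sites are plotted against Zeitgeber time, with 1 pooled library per point, Wilson 95% intervals for counting error as bars, the fitted 24-h cosine as a line and the dark phase in grey. The Plin1, Plin2, Plin4 and Plin5 points are highest at ZT6 and lowest at ZT18, whereas the Plin3 points are lowest at ZT6 and highest at ZT15.

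The 24-h cosine was tested for all peaks with edgeR's quasi-likelihood test, in which the departure of the 8 libraries from the curve is the spread, with Benjamini-Hochberg adjustment over all 66066 peaks. Of the 26 perilipin peaks, 6 (23.1%) had an adjusted p under 0.05, compared with 13.4% of all peaks and 29.2% of the strongest 10%, to which 14 of the 26 belong. Of these 14, 5 passed (35.7%), and of the other 12, 1 passed. The start-site peaks of Plin4 (adjusted p = 0.000977), Plin1 (0.0106), Plin5 (0.0227) and Plin3 (0.0266) passed, and that of Plin2 did not (0.0541). For Plin4, the study had already reported oscillating PPARγ binding from these same libraries, so its call is not independent of that report. The other 2 lie downstream of the Plin1 start site, as described with the windows.

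With JTK-cycle, the rank test used in the study, which compares the order of the 8 libraries with curves of 21 and 24 h, 6 of the 26 peaks (23.1%) had a Bonferroni-adjusted p under 0.05, compared with 11.6% of all peaks and 22% of the strongest 10%. Plin1 and Plin4 passed (both 0.00595), while Plin2, Plin3 and Plin5 were at 0.0826. After Benjamini-Hochberg adjustment over all peaks no peak of the table passed, as the lowest value was 0.0968. The number of calls depended on how equal values of the reference curve were ranked, as only 3 of the 26 peaks passed when they were kept as ties (3.28% of all peaks), namely the Plin1 and Plin4 start sites (both 0.0160) and a peak over the Arrdc5 start site (0.0260). When reference values were ranked as computed, 5 passed (9.8% of all peaks), including the Plin3 start site (0.0260).

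The light-phase maximum of the 4 start sites moved together with a measure of the whole library. The strongest 10% of peaks held 48.1% of the reads at ZT6, and this share was lowest at ZT15 (44.2%) and ZT18 (44.3%). Among these strong peaks, 61.9% were highest at ZT3, ZT6 or ZT9, compared with 38.6% of all peaks. Under cyclic loess these shares were 39.9% and 37.8%. In this normalization, which removes trends with peak strength, the log2 amplitude was 0.03 at Plin1 (adjusted p = 0.755), 0.03 at Plin2 (0.842), 0.09 at Plin4 (0.0961) and 0.10 at Plin5 (0.225), and 2 of the 26 peaks passed compared with 11.1% of all peaks. At Plin3 it was 0.26 (adjusted p = 0.00635), with a peak at ZT 15.5. JTK-cycle called 5 of the 26 peaks under cyclic loess (11.0% of all peaks), the Plin3 and Plin4 start sites (both 0.0260) among them. The part of the library-wide shift in the light-phase maximum of Plin1, Plin2, Plin4 and Plin5 was not tested. Leaving out 1 library also ended calls, as Plin1 was at 0.0614 without ZT6 and 0.0994 without ZT18, Plin5 at 0.114 without ZT6, 0.0741 without ZT15 and 0.169 without ZT18 (and at 0.0552 with library totals only), and Plin3 at 0.0566 without ZT6, 0.0760 without ZT12, 0.114 without ZT15 and 0.0549 without ZT18. The Plin4 start site stayed between 0.00137 and 0.0152 whichever library was left out.

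Over all 26 peaks, the cosine called 2 without ZT6 (6.48% of all peaks), 7 without ZT9 (8.49%), 4 without ZT12 (8.62%), 3 without ZT15 (5.65%) and 1 without ZT18 (4.64%). The Plin4 start site was the 1 peak called without ZT18, the 1 peak called when 24-h and 12-h terms were tested together (2.03% of all peaks) and the 1 peak called at a threshold of 0.01 (3.4%). JTK-cycle called 4 of the 26 at a threshold of 0.01 (4.66%), 9 without ZT3 (16.4%) and 11 without ZT9 (13.3%).

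**Figure D3:**
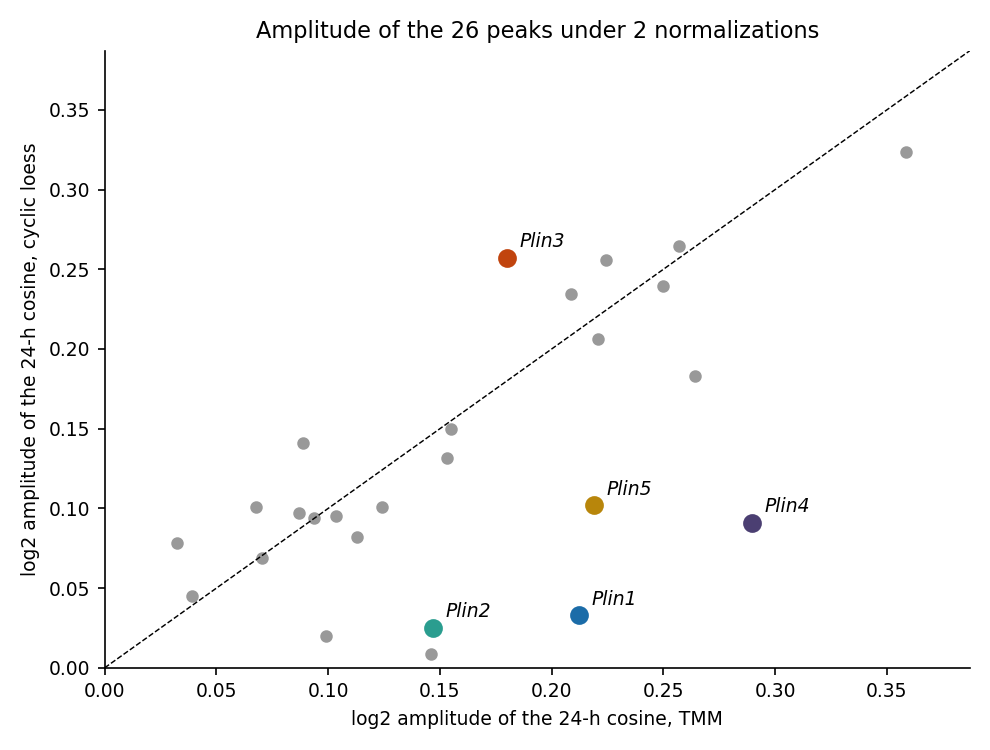
The log2 amplitude of the 24-h cosine under cyclic loess is plotted against that under TMM for the 26 peaks, with the 5 start-site peaks coloured and named and the dashed line marking equal values. Plin1, Plin2, Plin4 and Plin5 lie far below the line, and Plin3 lies above it with 0.26 compared with 0.18.

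Whether the time course of Plin3 differed from that of the other perilipins was tested on the ratio of 2 peaks within each library, from which depth and any factor common to the library cancel. For each of 31 pairs, a 24-h cosine in the log2 ratio was compared with all orders of the 8 libraries in a two-sided exact permutation test, whose smallest possible p is 0.000397. The pairs were the 10 pairs of start-site peaks and, in each window, the strongest peak with each of the others. The ratio of Plin3 to Plin4 was 0.246 at ZT6, its lowest, and 0.475 at ZT15, its highest. The log2 ratio of Plin3 to Plin4 had an amplitude of 0.41 ± 0.05 (exact permutation p = 0.00238, adjusted over the 31 pairs 0.0246). The log2 ratio of Plin1 to Plin3 had an amplitude of 0.33 ± 0.05 (exact p = 0.00476, adjusted 0.0320), that of Plin3 to Plin5 0.34 ± 0.07 (exact p = 0.00913, adjusted 0.0431) and that of Plin2 to Plin3 0.26 ± 0.05 (exact p = 0.00992, adjusted 0.0431).

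In this test under TMM, Plin3 thus differed in its daily course from each of the other 4 start sites, but the calls depended on the processing, as given below. The ratio changed by 1.58 to 1.93-fold between the highest and the lowest time point, and the same Plin3 peak is in all 4 ratios. Among the other 4, the ratio of Plin2 to Plin4 also passed, with a smaller amplitude of 0.15 ± 0.02 (exact permutation p = 0.0147, adjusted 0.0455), as the range of Plin4 was wider. The other 5 pairs had log2 amplitudes of 0.01 to 0.08 and adjusted p-values of 0.0869 to 0.912 by the exact permutation test. For Plin1 and Plin5 the ratio had an amplitude of 0.01 ± 0.03 and moved by 1.10-fold over the day, the least of all pairs of start sites.

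Plin3 and Plin5 had similar mean levels (3204 and 3062 normalized reads), and their ratio had the same log2 amplitude, 0.34, under cyclic loess. With that normalization the unadjusted exact permutation p was 0.00159 for Plin3 with Plin4 (adjusted 0.0246) and 0.00913 for Plin3 with Plin5 (adjusted 0.0595). It was 0.00992 for Plin1 with Plin3 and 0.0115 for Plin2 with Plin3 (both adjusted 0.0595), so that 2 of the 31 pairs passed. In all, 11 of the 31 pairs passed under TMM, but these calls rest on few libraries. No pair passed without ZT0, without ZT6 or without ZT9, 3 passed without ZT12, 4 without ZT18, 6 without ZT3 and 7 without ZT15 or without ZT21. Unadjusted, the exact permutation p of the 4 pairs with Plin3 stayed between 0.00317 and 0.0452 whichever library was left out. When the mean of ZT3 to ZT9 was compared with that of ZT15 to ZT21 instead, 0 of the 31 pairs passed (adjusted p between 0.0664 and 0.0766 for the 4 pairs with Plin3), in a test whose smallest unadjusted p is 0.00357.

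**Figure D4:**
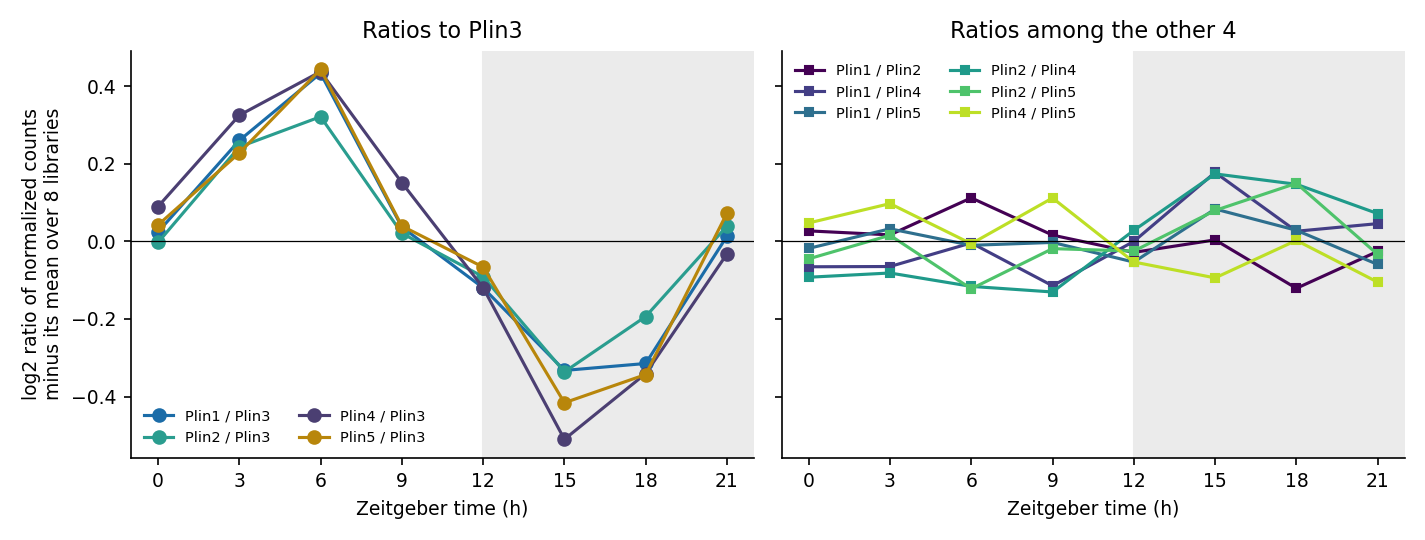
The log2 ratio of normalized reads between 2 start-site peaks, minus its mean over the 8 libraries, is plotted against Zeitgeber time, for ratios to Plin3 on the left and among Plin1, Plin2, Plin4 and Plin5 on the right, with the dark phase in grey. All 4 ratios to Plin3 are highest at ZT6 and lowest at ZT15, and the ratios among the other 4 stay closer to 0.

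The Plin1 window was the one in which most peaks followed the light-phase course. All 8 peaks were highest at ZT3, ZT6 or ZT9 and lowest at ZT15 or ZT18, with a highest-to-lowest ratio of 1.20 to 1.91. Under cyclic loess, 6 of the 8 were highest and 6 of the 8 lowest at these times, and the start-site peak was highest at ZT15. In this window, 3 peaks passed the edgeR cosine and 4 passed JTK-cycle. The peak chr7:79721055-79723801, over the 3′ end of Plin1, had 1904, 2279, 2146, 1895, 1893, 1710, 1479 and 1522 normalized reads from ZT0 to ZT21 (edgeR adjusted p = 0.0125). It was highest at ZT3, and of the settings run it did not pass without ZT18 (0.0941), under cyclic loess (0.0684) and when 24-h and 12-h terms were tested together (0.0522).

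The widest range of the called peaks was at chr7:79718173-79720875, an intergenic peak between Plin1 and Kif7 (a kinesin of Hedgehog signalling), with 868, 1138, 1196, 1252, 833, 700, 716 and 1070 normalized reads. Its level at ZT9 was 1.79 times that at ZT15, the log2 amplitude was 0.36 ± 0.11 and both tests passed (edgeR adjusted p = 0.0272, JTK-cycle 0.0260). Its JTK-cycle p was 0.147 with reference ties kept and 0.0826 with reference values ranked as computed. Together with Plin3 it was the other peak that passed under cyclic loess (adjusted p = 0.0488). It did not pass without ZT6 (0.0752), ZT12 (0.0544), ZT15 (0.124) or ZT18 (0.139), with library totals only (0.0505) or when 24-h and 12-h terms were tested together (0.0579). The ratio of the Plin1 start site to this peak had an amplitude of 0.18 ± 0.11 and did not pass (exact permutation p = 0.340).

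The Kif7 start-site peak chr7:79715436-79717897 had 357, 439, 474, 397, 333, 290, 343 and 406 normalized reads and passed JTK-cycle (0.0260) but not the cosine (0.0731). Its JTK-cycle p was 0.0543 with reference ties kept and 0.0826 with reference values ranked as computed, and stayed at 0.0260 under cyclic loess. On the other side, the peak chr7:79757281-79760243 in an intron of Wdr93 ranged only from 1666 at ZT15 to 1999 at ZT6 and passed JTK-cycle (0.00595) but not the cosine (0.274). Under cyclic loess its JTK-cycle p was 0.915, with library totals only 0.467 and with reference ties kept 0.0543. It still passed JTK-cycle with reference values ranked as computed (0.0260). The large peak chr7:79737380-79743574 over Pex11a, a gene of peroxisome division, ranged from 3879 at ZT18 to 5171 at ZT6 and passed neither test (cosine 0.0821, JTK-cycle 0.0826). The 2 small peaks within Plin1, at chr7:79725219-79725875 and chr7:79726276-79726741, had means of 166 and 141 normalized reads and adjusted p-values of 0.279 and 0.242 in the edgeR cosine.

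In the Plin2 window all 5 peaks were also highest at ZT3, ZT6 or ZT9, but none passed either test. Under cyclic loess 3 of the 5 were, and the start-site peak and the peak over the 3′ end of Plin2 were highest at ZT15. The peak chr4:86652997-86659542 over the 3′ end of Plin2, which holds 5 of the DR1-like elements, had 1686, 1821, 1866, 1971, 1889, 1924, 1662 and 1650 normalized reads and peaked later than the start site, at ZT 9.61 (edgeR adjusted p = 0.136). The peak chr4:86671489-86672669, 2.02 kb upstream of the start site, ranged from 548 at ZT15 to 867 at ZT3 (0.103), and chr4:86685203-86687114, further upstream, from 564 at ZT18 to 870 at ZT6 (0.0583). The weakest, chr4:86651265-86652605, ranged from 279 at ZT15 to 359 at ZT3 (0.656). The window ends just before a stronger peak, chr4:86688777-86692297, which lies 20.5 kb upstream of Plin2, its nearest start site. It had a mean of 5324 normalized reads, above the 4748 of the start-site peak, ranged from 4777 at ZT18 to 6102 at ZT6 and had an adjusted p of 0.0438 in the cosine and 0.0260 in JTK-cycle. These values are under TMM. This peak was chosen after its values were seen, and values under cyclic loess or without single libraries are not given for it.

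In the Plin3 window only the start-site peak passed the cosine. The peaks towards the gene's 3′ end did not. The peak chr17:56278802-56280421 ranged from 1463 at ZT21 to 1633 at ZT9, the narrowest range of the 26 (1.12-fold). With 974 normalized reads per kb it was nevertheless the densest of the 26 peaks. The peak chr17:56280717-56282018, in intron 6, ranged from 346 at ZT12 to 474 at ZT0. The ratio of the Plin3 start site to each of these 2 changed over the day (exact permutation p = 0.0131, adjusted 0.0451, and p = 0.0111, adjusted 0.0431). Neither pair passed under cyclic loess (adjusted 0.0595 and 0.0626) or when ZT3 to ZT9 was compared with ZT15 to ZT21 (unadjusted exact p = 0.125 and 0.911). Beside the Plin3 start site, the peak chr17:56299089-56300600 over the start site of Arrdc5 had 808, 844, 893, 955, 1048, 886, 826 and 823 normalized reads, with a single maximum at ZT12, and passed JTK-cycle (0.00595) but not the cosine (0.115). The remaining 3 peaks, over the start sites of Ticam1 (chr17:56275855-56277990), an adaptor of Toll-like receptors, and Uhrf1 (chr17:56301739-56304435), which maintains DNA methylation, and at the 3′ end of Ticam1 (chr17:56269022-56269709), had highest-to-lowest ratios of 1.30, 1.24 and 1.23 and passed neither test.

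Around Plin4 and Plin5 the time of the highest level under TMM differed with position. The 3 peaks over and downstream of the 2 genes were highest at ZT6, and the 3 peaks upstream of Plin5, over Lrg1 (a secreted glycoprotein) and Sema6b (a semaphorin), were highest at ZT12 or ZT15. Under cyclic loess the smallest of the upstream peaks was highest at ZT21 and the Plin4 start-site peak at ZT3. The Plin4 start-site peak had 11601 normalized reads at ZT6 and 7928 at ZT15. The peak chr17:56118659-56122362 over Lrg1, 2.96 kb upstream of Plin5, had 2137, 2308, 2147, 2420, 2510, 2461, 2221 and 2296. The log2 ratio of the Plin4 peak to it had an amplitude of 0.32 ± 0.03 (exact permutation p = 0.00119, adjusted 0.0246). Under cyclic loess the amplitude was 0.23 and the adjusted p the same.

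The ratio of the Plin4 peak to chr17:56122716-56125477, over Sema6b, had an amplitude of 0.32 ± 0.06 (exact permutation p = 0.00516, adjusted 0.0320), and that to chr17:56127800-56128397, within Sema6b, 0.39 ± 0.05 (exact p = 0.00238, adjusted 0.0246). Under cyclic loess the amplitudes of these 2 ratios were 0.19 and 0.17, and neither passed (exact permutation test, adjusted 0.0626 and 0.0666). None of the 3 upstream peaks passed the cosine on its own (edgeR adjusted p between 0.318 and 0.608). Their means were 2312, 1210 and 153 normalized reads, compared with 9672 for the Plin4 peak. The part of peak strength in these ratios was not tested, and the Plin5 peak was not compared with the upstream peaks. The peak chr17:56098774-56101560, past the end of Plin4 in Hdgfl2, ranged from 718 at ZT15 to 984 at ZT6 (0.198). Its ratio to the Plin4 peak passed under TMM (exact p = 0.0175, adjusted 0.0492) but not under cyclic loess (0.4995).

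**Figure D5:**
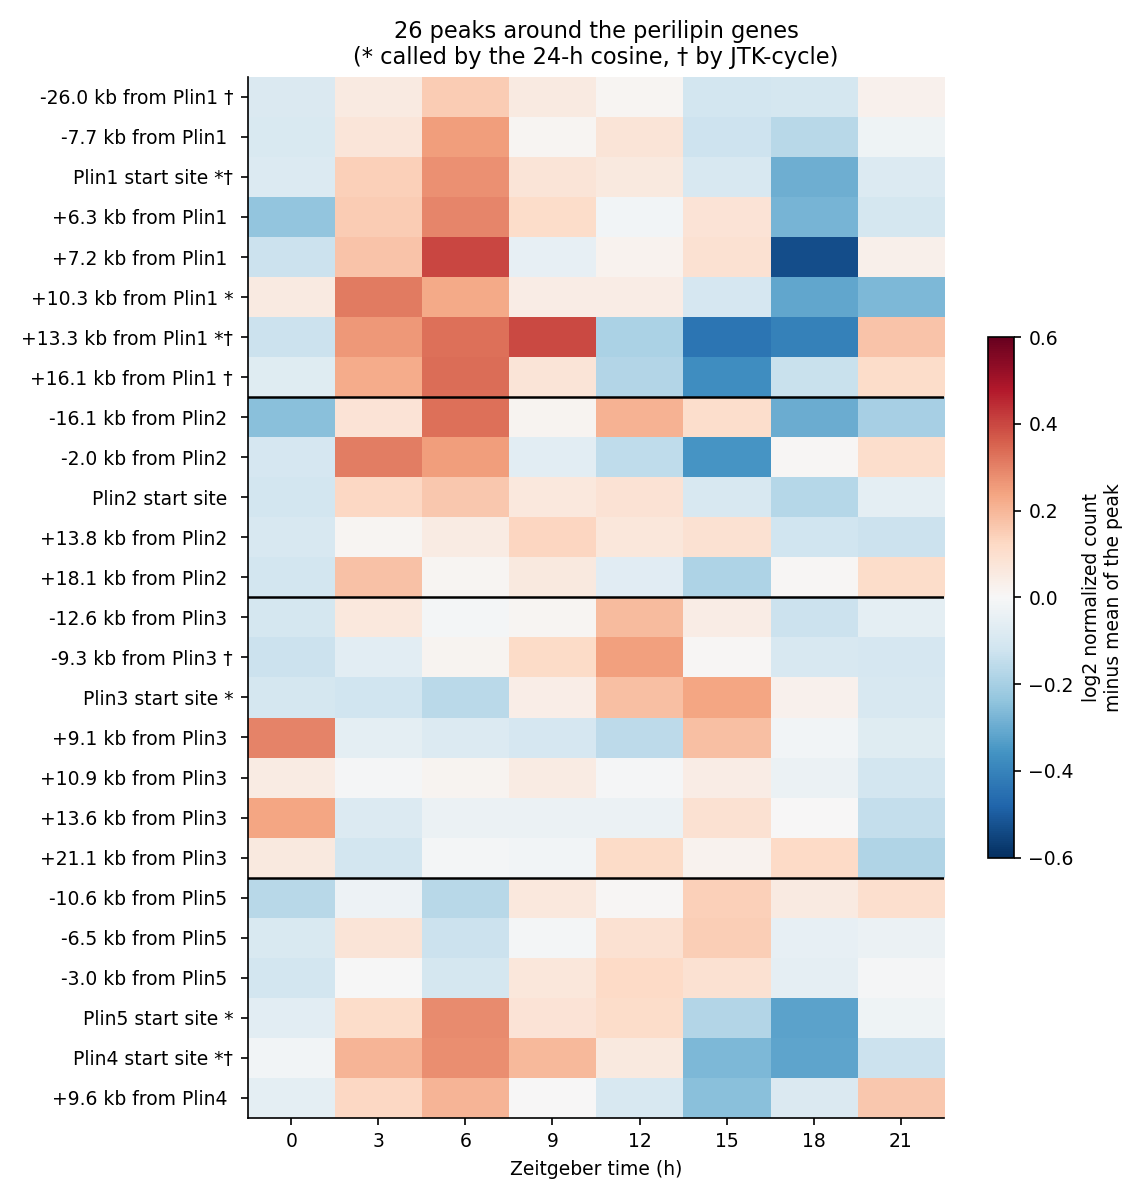
The log2 normalized count of each of the 26 peaks, minus the mean of that peak, is shown in colour for the 8 time points, with the peaks of each window ordered from upstream to downstream of the gene and named by the distance of their centre from the nearest perilipin start site. Asterisks mark the 6 peaks called by the edgeR cosine and daggers the 6 called by JTK-cycle. All peaks of the Plin1 and Plin2 windows are above their mean at ZT3 and ZT6, the Plin3 start site is red at ZT12 and ZT15, and the Plin4 and Plin5 start sites turn from red at ZT6 to blue at ZT15 and ZT18.

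Over the 4 windows, 17 of the 26 peaks (65.4%) were highest at ZT3, ZT6 or ZT9, compared with 38.6% of all peaks and 61.9% of the strongest 10%. Under cyclic loess 12 of the 26 were. The 17 comprised 8 of 8 around Plin1, 5 of 5 around Plin2, 1 of 7 around Plin3 and 3 of 6 around Plin4 and Plin5. Another 6 (10 under cyclic loess) were highest at ZT12 or ZT15, as were 28.7% of all peaks, and the 6 were 3 of those around Plin3 and 3 of those around Plin4 and Plin5. The median highest-to-lowest ratio was 1.33 for the perilipin peaks, 1.33 for the strongest 10% of peaks and 1.52 for all peaks.

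Other genes of lipid droplets were described by their strongest peak within 50 kb, for which they were the nearest gene. Of 18 such genes 17 had a peak, and the strongest peak passed the edgeR cosine in 12 of the 17 and JTK-cycle in 8, compared with 29.2% and 22% of the strongest 10% of all peaks. It was highest at ZT3, ZT6 or ZT9 in 13 of them, compared with 61.9% of the strongest 10%. These counts are a description, as the study had already reported oscillating PPARγ binding for Pnpla2, Ces1d, Dgat2 and Gpat4, besides Plin4, from these libraries. The peaks were also not matched in strength. Their means ran from 653 (Fitm2) to 14950 (Lipe) normalized reads, compared with a median of 1726 in the strongest 10%. Among the genes of lipolysis, the peaks of Lipe (hormone-sensitive lipase, 12070 at ZT15 to 18924 normalized reads at ZT6, adjusted p = 0.00202), Pnpla2 (adipose triglyceride lipase, 10905 at ZT18 to 16503 at ZT6, 0.00649) and Mgll (monoacylglycerol lipase, 5351 at ZT15 to 7977 at ZT6, 0.00217) were likewise highest at ZT6. Abhd5, the partner of Plin1, had a strongest peak of 1282 at ZT15 to 1818 at ZT6 that did not pass (0.330).

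The Ces1d peak, of a carboxylesterase that hydrolyses droplet lipids, was lowest at ZT3 with 3577 and highest at ZT12 with 5332 normalized reads (0.00707), and was the only one of the 12 called peaks that was not highest at ZT3, ZT6 or ZT9. For droplet fusion, the peaks of Cidea and Cidec passed (0.00622 and 0.0257), and for formation and storage those of Dgat1, Gpat4, Dgat2, Agpat2 and Bscl2, between 0.00547 and 0.0470. All these values are under TMM, and values of these genes under cyclic loess are not given here.

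The peaks outside the windows whose course was most like that of each start site were taken from the 17389 or 17390 peaks with a mean of at least 500 normalized reads, by Pearson's r of log2 levels over the 8 libraries, as a description. For Plin1 the closest was the peak chr7:25376063-25382654, 2.54 kb from 4732471J01Rik (r = 0.989). It lies beside the strongest peak of Lipe (chr7:25383420-25396925). For Plin2 the closest was a peak whose nearest start site, Glt1d1, is 348 kb away (r = 0.994). For Plin4 it was a peak 16 kb from Ephx3 (r = 0.996) and for Plin5 a peak 112 kb from Adra1a, the α1A-adrenergic receptor (r = 0.991). For Plin3 it was a peak 0.596 kb from the start site of Dlg1, a scaffold protein (r = 0.987). The next 2 were nearest to Lhpp and Gm20751 for Plin1, Tiam1 and Hadh for Plin2, 1700018L02Rik and Myoz2 for Plin3, Gm10782 and Mir6951 for Plin4, and Atxn2 and Nnmt for Plin5. An r of at least 0.9 was reached by 189 peaks (1.09%) for Plin3 and by 595 to 1079 peaks (3.42% to 6.21%) for the other 4.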

How the data were processed

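The members and gene lists were chosen with earlier results of these data known. The authors mapped reads to mm10 with BWA-MEM 0.7.17, called peaks with MACS2 2.1.2 and deposited raw HTSeq 1.99.2 read counts per peak. They kept peaks that were significant in at least 6 of 8 libraries for their tests. The table holds 66066 peaks, the same number that the study gives for its test of oscillation. Whether each of them met that rule could not be tested on the counts. Handling of duplicate reads is not given in the sources used here, and the totals hold reads in peaks only.

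Counts were normalized with TMM in edgeR 4.0.16 (R 4.3.3) and a 24-h cosine was tested with its quasi-likelihood method (5 residual degrees of freedom, common dispersion 0.0116). MetaCycle was not used, and JTK-cycle was written anew. Its rule for equal reference values was chosen among about 20 forms by comparison with the P values in the study's supplementary table, after the data had been seen, and other rules were added as alternatives for that reason. Both tests were tested on simulated data. Levels are scaled to the median library total of 31733719 reads. Within the windows, values at all 8 time points were given for peaks over a perilipin start site and peaks called by either test, and other peaks by their range. The peaks over the 3′ end of Plin2 and over Lrg1, given in full, and the peak past the Plin2 window were chosen after their values were seen.

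Start sites were those of curated RefSeq transcripts of GRCm38. Sequences were read from that genome and from RefSeq promoters (GRCm38.p6), in which all 5 genes were found. The DR1-like sequences of the Plin1 peak are not reported here. Alternatives included library totals, DESeq2 1.42.0, upper-quartile factors, cyclic loess (limma 3.58.1), filters on low counts, thresholds and leaving out each library. Python was 3.11.15.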

Additional observations from a re-analysis of the deposited data

How the results depend on the processing

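The 6 cosine calls became 2 under cyclic loess, 1 when 24-h and 12-h terms were tested together and 1 at a threshold of 0.01. They were between 1 and 8 when a library was left out, with 1 without ZT18, 2 without ZT6 and 3 without ZT15. The other settings gave 4 to 7. JTK-cycle called 3 peaks when reference ties were kept, and 3 of the 15 peaks whose nearest start site within 50 kb is that of a perilipin gene. It called 6 to 11 when a library was left out, with 11 without ZT9, and 4 to 8 otherwise. The 11 pairs became 0 when the means of ZT3 to ZT9 and ZT15 to ZT21 were compared, 2 under cyclic loess (chosen after seeing the data, as were the rules for ties) and 0 to 7 when a library was left out. The 17 peaks highest at ZT3 to ZT9 became 12 under cyclic loess, a setting added after seeing the data. The 15 peaks with a DR1-like element became 3 with at most 1 mismatch. Over single peaks and pairs, 591 alternatives kept the side of the threshold, 97 lost and 7 gained it. The 591 include peaks and pairs that were not called and stayed uncalled, so they do not measure how stable the calls were. Of 16 cosine alternatives, the called start-site peaks passed in 15 (Plin4), 12 (Plin1), 11 (Plin3) and 10 (Plin5). It was 13 for chr7:79721055-79723801 and 10 for chr7:79718173-79720875. No called pair passed in more than 5 of the 8 fits without 1 library. Leaving out a library also lowers the number of orders and of residual degrees of freedom, and for the other settings the cause was not tested. No paired analysis was possible because each time point has 1 library. Counting error limits mainly the weak peaks, as that of the start-site peaks is smaller than their range. Reads in peaks were fewest at ZT18 and most at ZT6, and their part in that range was not tested. With 1 library per time point, the yield of a library and the time of day cannot be told apart.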
